A study of Mus musculus with 8 samples.

Results

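The genes described here encode the receptors for fibroblast growth factors (FGF), the adaptor and phosphatase that couple them to the RAS-ERK cascade, the inhibitors that dampen that cascade and 1 of its transcription factors. The 10 genes, Fgfr1, Fgfr2, Fgfr3, Frs2, Ptpn11, Spry1, Spry2, Spred1, Dusp6 and Etv5, were taken by gene symbol from the 35275 genes listed. All 10 were found, and 9 of them were among the 9794 genes tested, those that averaged 1.0 FPKM or more in one group at least. Dusp6 was below this minimum and was described without that test.

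RNA was measured in lens fiber cells (FC), the elongated cells that fill the lens, of C57BL/6 mice (the methods name the substrain C57BL/6J) exposed to cigarette smoke (CS) and of age-matched, untreated control (Ct) mice. The mothers of CS-exposed mice entered a whole-body smoke chamber late in pregnancy, and the pups were exposed there from birth for 3.5 months, 5 hours/day and 5 days/week. Mice of both groups received tropicamide, phenylephrine and ketamine/xylazine for an eye examination and isoflurane before the lenses were taken. Each of the 4 libraries per group came from the right eyes of a pool of 4 mice, from which the FC had been separated from the lens epithelium with forceps. The pools were of male or of female mice, and which library was which is not given in the sources used here. FPKM is the number of sequenced fragments per kilobase of gene, scaled to the fragments of the library, so levels of different genes are compared per length below. By the steps in which low FPKM rise, the estimated depth was 18100000 to 23300000 fragments per library.

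FGF bind receptor tyrosine kinases together with heparan sulfate. The activated receptor phosphorylates the docking protein FRS2, which recruits GRB2 and the phosphatase SHP2 (the product of Ptpn11) and so feeds the RAS-ERK cascade. In the lens, FGF from the eye fluids drive epithelial cells at the equator to exit the cell cycle, elongate and become FC, and the Sprouty, Spred and dual-specificity phosphatase genes are transcribed in response to the signal and restrain it.

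The labelled cells were checked against marker genes, counted where the mean of either group reached 1 FPKM. All 13 lens fiber markers did, and their summed level was 334059 to 340877 FPKM in untreated Ct and 324477 to 337610 FPKM in CS-exposed libraries. Of 9 lens epithelium markers, 8 reached 1 FPKM, none was at 0, and their sum was 62.3 to 122.7 FPKM in untreated Ct and 49.1 to 80.7 FPKM in CS-exposed libraries. Of 12 rod photoreceptor markers, 9 reached 1 FPKM, and their sum was 7.22 to 24.8 FPKM in untreated Ct and 28.9 to 92.2 FPKM in CS-exposed libraries, so that the groups did not overlap. Retinal pigment epithelium markers, 4 of 7 of which reached 1 FPKM, summed to 1.43 to 2.44 FPKM in untreated Ct and 3.62 to 27.0 FPKM in CS-exposed libraries, with Best1 listed at 0 throughout. Red blood cell markers (2 of 5) summed to 0.265 to 1.73 FPKM in untreated Ct and 0.4999 to 22.8 FPKM in CS-exposed libraries, with the groups overlapping. Fibroblast markers (1 of 5) and those of Mueller glia and inner retina (2 of 8) differed little between groups, at sums of 12.3 to 14.9 and 6.20 to 9.79 FPKM over all libraries. The fibroblast sum was nearly all Pdgfrb (13.1 and 13.3 FPKM in untreated Ct and CS-exposed mice). Col1a1, Col1a2, Dcn and Lum averaged at most 0.132 FPKM in either group. The Mueller glia and inner retina sum was mostly Glul (5.74 and 6.54 FPKM). These sums therefore reflect single genes more than a cell type. No marker of endothelium (0 of 5), immune cells (0 of 6) or pigmented cells of the iris and ciliary body (0 of 6) reached that group mean, although the last summed to 6.52 FPKM in CS-exposed replicate 4. In such bulk samples, fewer cells of a type and less RNA per cell cannot be told apart.

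No difference in the receptors and their feedback genes passed the test when CS-exposed mice were compared with untreated Ct mice. None of the 9 tested genes passed an adjusted p of 0.05 (limma, Benjamini-Hochberg over all 9794 genes), a threshold passed by 1 gene or 0.0102% of those tested. None passed an unadjusted p of 0.05 either, against 4.83% of all tested genes. Between CS-exposed and untreated Ct mice 5 were higher and 4 were lower, with a median log2 difference of 0.02, and among all tested genes 5019 were higher and 4775 lower, with a median of 0.0043. The 95% intervals of the 9 fold changes lay between 0.822 and 1.24, which bounds the difference that these libraries leave room for. The SD of a gene within groups, on the log2 scale, had a median of 0.0679 over the 9 genes and of 0.168 over all tested genes, which include many at lower levels.

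**Figure D1:**
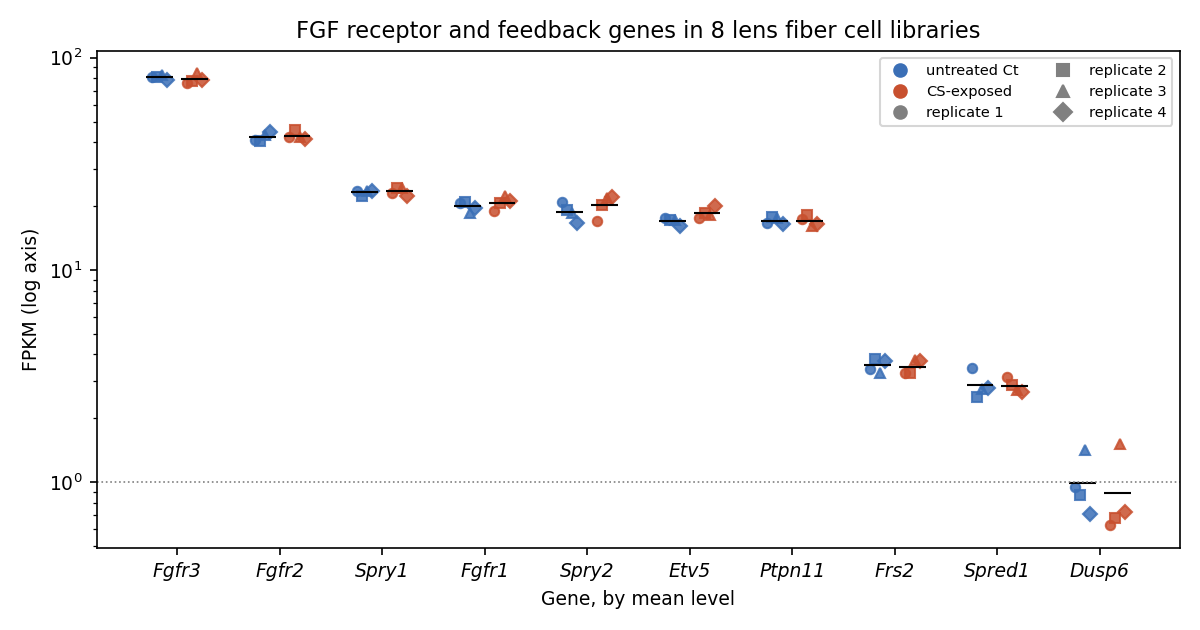
FPKM of the 10 genes in each library on a log axis, ordered by mean level, with a point per library (colour for the group, shape for the replicate number) and a bar for the group mean. The dotted line is the minimum of 1 FPKM, and Dusp6, which straddles it, has its 2 highest values in replicate 3 of both groups.

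Of the receptors, Fgfr3 (chr5:33721724-33737068, plus strand, GRCm38) had the highest level of all 10 genes. It measured 81.0, 81.4, 83.1 and 78.5 FPKM in untreated Ct replicates 1 to 4 and 75.9, 77.7, 84.4 and 78.8 FPKM in CS-exposed replicates 1 to 4. The CS-exposed libraries held both the highest and the lowest value, so the groups overlapped, with means of 81.0 ± 1.87 and 79.2 ± 3.64 FPKM (SD, n = 4 each). The log2 difference, on log2(FPKM + 0.1) as for all genes below, was -0.03 (SE 0.047, 95% interval -0.14 to 0.07), and the limma adjusted p was between 0.956 and 0.995 for all 9 tested genes.

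Fgfr2 (chr7:130162451-130266808, minus strand), whose splice forms bind different FGF in epithelial and mesenchymal cells, was second in deposited FPKM. Its values were 41.0, 40.3, 43.3 and 44.7 FPKM in untreated Ct mice and 42.4, 45.4, 42.3 and 41.4 FPKM in CS-exposed mice. The groups overlapped, with 2 untreated Ct values below and 1 CS-exposed value above all those of the other group, and the log2 difference of 0.02 (SE 0.055) had a 95% interval of -0.10 to 0.14. FPKM were given per gene, so splice forms of a receptor were not separated.

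Fgfr1 (chr8:25518759-25575718, plus strand), the receptor of widest use among tissues, was the lowest of the 3. Untreated Ct libraries held 20.6, 20.99, 18.6 and 19.5 FPKM and CS-exposed libraries 18.9, 20.8, 22.2 and 21.04 FPKM. The groups overlapped, with a log2 difference of 0.06 (SE 0.069, 95% interval -0.09 to 0.21).

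Fgfr4 was at or near 0, from 0 to 0.0998 FPKM, so the RNA of Fgfr1 to Fgfr4 consisted almost wholly of that of the other 3. Fgfr3 made up 56.5 ± 1.06% of the summed FPKM of Fgfr1 to Fgfr4 in untreated Ct and 55.4 ± 1.13% in CS-exposed mice (SD, n = 4 each). Fgfr2 made up 29.5 ± 1.35% and 30.0 ± 1.44%, and Fgfr1 13.9 ± 0.856% and 14.5 ± 0.537%. The differences of -1.10, 0.503 and 0.606 percentage points did not pass (exact permutation tests, two-sided, p = 0.229, 0.657 and 0.257, adjusted over the 4 shares 0.514, 0.8286 and 0.514). The order Fgfr3, Fgfr2, Fgfr1 was seen in 8 of 8 libraries, with a ratio of Fgfr3 to Fgfr2 of 1.88 ± 0.117 and of Fgfr2 to Fgfr1 of 2.10 ± 0.176 (SD, n = 8). With FPKM rescaled to exon-union gene lengths, the order again held in 8 of 8 libraries, with shares among these 3 of 62.4 ± 1.08%, 24.0 ± 1.16% and 13.6 ± 0.693% (SD, n = 8).

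**Figure D2:**
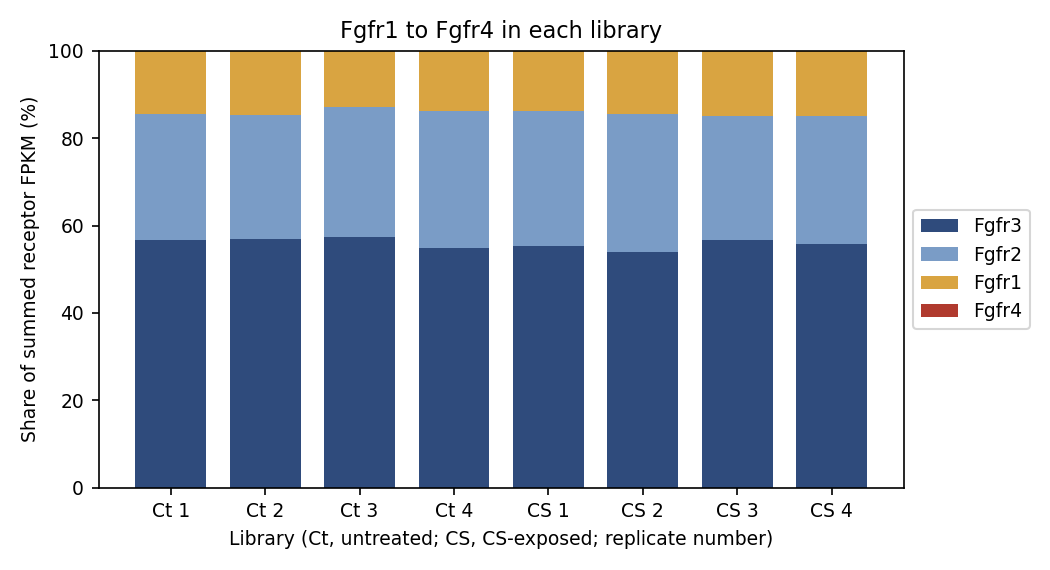
Share of each FGF receptor in the summed FPKM of Fgfr1 to Fgfr4, as a percent, in each of the 8 libraries. Fgfr3 takes 54.0 to 57.3% in every bar, and Fgfr4, at most 0.0698%, is too small to be seen.

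The docking protein gene Frs2 (chr10:117070127-117148474, minus strand) stood far below the receptors it serves. It measured 3.43, 3.797, 3.26 and 3.73 FPKM in untreated Ct mice and 3.26, 3.25, 3.76 and 3.71 FPKM in CS-exposed mice. The groups overlapped at both ends, and the log2 difference was -0.02 (SE 0.105, 95% interval -0.25 to 0.21). At 383 to 456 reads per library, its interval was wider than those of the receptors, which rested on 1780 to 8198 reads.

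Ptpn11 (chr5:121130533-121191397, minus strand), which encodes the phosphatase SHP2 recruited by FRS2, was 4.86 ± 0.504 times as high as Frs2 in deposited FPKM (SD, n = 8), and stood at 16.9 against 2.29 with FPKM rescaled to exon-union gene lengths. Its values were 16.6, 17.7, 17.6 and 16.4 FPKM in untreated Ct mice and 17.4, 18.1, 16.1 and 16.5 FPKM in CS-exposed mice. The group means of 17.07 ± 0.685 and 16.9995 ± 0.915 FPKM (SD, n = 4 each) differed by less than either SD.

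Among the feedback inhibitors, the Sprouty gene Spry1 (chr3:37639947-37644599, plus strand), whose product blocks RAS-ERK activation downstream of receptor tyrosine kinases, was highest. It measured 23.5, 22.3, 23.6 and 23.5 FPKM in untreated Ct mice and 23.1, 24.4, 24.2 and 22.4 FPKM in CS-exposed mice. Untreated Ct replicate 2 was the lowest of the 8, the groups overlapped, and the log2 difference was 0.02 (SE 0.057).

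Its relative Spry2 (chr14:105891947-105896819, minus strand) was nearly as high but more variable. Untreated Ct libraries held 20.8, 19.3, 18.6 and 16.6 FPKM and CS-exposed libraries 17.1, 20.3, 21.8 and 22.1 FPKM. CS-exposed replicate 1 lay among the low untreated Ct values and the groups overlapped, with a log2 difference of 0.11 (SE 0.094, 95% interval -0.10 to 0.31). The ratio of Spry1 to Spry2 ranged from 1.02 to 1.41 over the libraries.

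Spred1 (chr2:117121071-117182279, plus strand), which brings neurofibromin to the membrane to switch off RAS, was low at 3.44, 2.53, 2.75 and 2.79 FPKM in untreated Ct and 3.12, 2.88, 2.70 and 2.67 FPKM in CS-exposed mice. The 2 highest values came from replicate 1 of either group, and the log2 difference was -0.01 (SE 0.124, 95% interval -0.28 to 0.26).

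Dusp6 (chr10:99263231-99267489, plus strand), the cytoplasmic phosphatase that removes activating phosphates from ERK, had the lowest level of the 10 genes and varied most between libraries. It measured 0.953, 0.869, 1.42 and 0.712 FPKM in untreated Ct mice and 0.627, 0.681, 1.52 and 0.727 FPKM in CS-exposed mice. Replicate 3 of each group stood above the other 6 libraries. These values rested on 36 to 92 reads, and the exact 95% Poisson intervals of the 2 high libraries, 1.14 to 1.74 and 1.21 to 1.87 FPKM, lay above those of untreated Ct replicate 4 and of CS-exposed replicates 1, 2 and 4, which ended at 0.864 to 0.985 FPKM. They overlapped that of untreated Ct replicate 1, 0.714 to 1.25 FPKM, and the first of them also that of untreated Ct replicate 2, 0.641 to 1.15 FPKM. Such intervals cover counting error only. The group means of 0.987 ± 0.302 and 0.888 ± 0.421 FPKM (SD, n = 4 each) did not differ beyond this spread (two-sided exact permutation test, p = 0.571). Spry1 was 16.0 to 36.9 times as high as Dusp6.

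Etv5 (chr16:22381313-22439570, minus strand) encodes a transcription factor of the ETS family that is induced by FGF signalling. It was the only 1 of the 9 tested genes (11.1%) whose groups did not overlap, and 3.08% of all tested genes showed this. Untreated Ct libraries held 17.6, 17.3, 17.2 and 16.1 FPKM and CS-exposed libraries 17.7, 18.5, 18.2 and 20.001 FPKM. The highest untreated Ct and the lowest CS-exposed library were 0.0075 FPKM apart, less than the 0.0119 FPKM that 1 read was worth in the latter, while the group means were 17.1 ± 0.652 and 18.6 ± 1.01 FPKM (SD, n = 4 each). The log2 difference of 0.12 (SE 0.064, fold 95% interval 0.987 to 1.199) did not pass limma (unadjusted p = 0.0830, adjusted p = 0.956). An exact permutation test of this gene alone gave p = 0.0286, the smallest that 4 against 4 libraries allow, and 10 genes were examined in this way. Rod and pigment epithelium markers were also higher in all CS-exposed libraries, and red blood cell markers were highest in CS-exposed replicate 4, the library with the highest Etv5. That library had the lowest summed rod markers of its group (28.9 FPKM). CS-exposed replicate 3, with the highest rod (92.2 FPKM) and pigment epithelium (27.0 FPKM) sums, had Etv5 at 18.2 FPKM. The part of these cell types in the Etv5 difference was not tested.

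**Figure D3:**
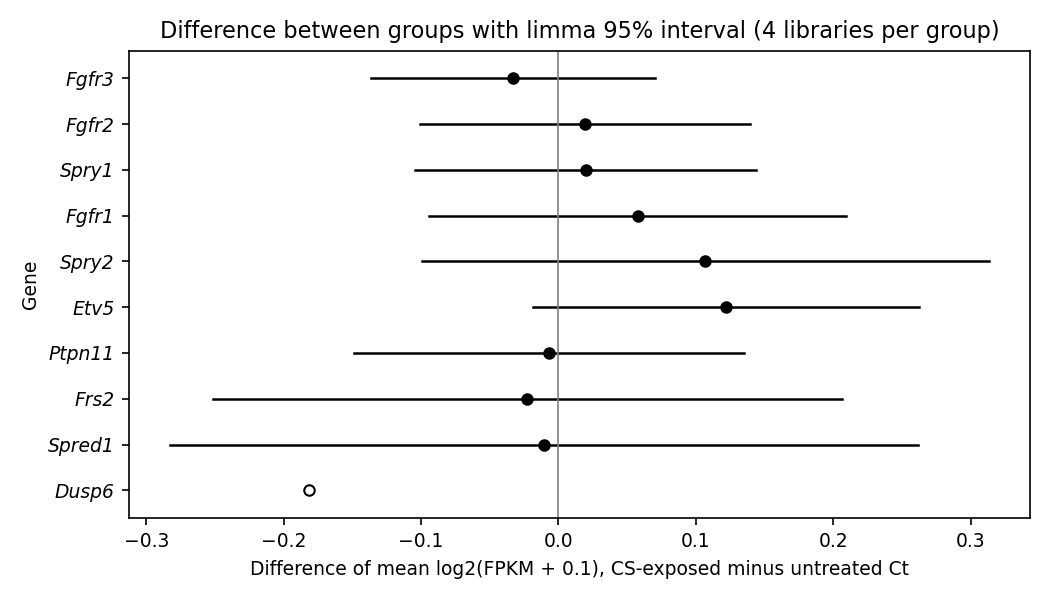
Difference of mean log2(FPKM + 0.1), CS-exposed minus untreated Ct, with limma 95% intervals from 4 libraries per group. All 9 intervals include 0, that of Etv5 (-0.02 to 0.26) lies furthest to one side of it, and the open circle is Dusp6, which was not tested with limma.

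Across the 10 genes, neighbours in the order of mean level were compared within libraries (two-sided exact sign-flip permutation tests, 8 libraries, adjusted over 9 neighbouring pairs). Fgfr3 over Fgfr2, Fgfr2 over Spry1, Spry1 over Fgfr1, Ptpn11 over Frs2 and Spred1 over Dusp6 held in 8 of 8 libraries each (exact p = 0.0078, the smallest possible, adjusted p = 0.0141). Spry2 over Etv5 (adjusted p = 0.0301, exact) and Frs2 over Spred1 (adjusted p = 0.0234, exact) held in 7 of 8 libraries. Fgfr1 at a mean of 20.3 FPKM and Spry2 at 19.6 FPKM were not separated beyond their spread (5 of 8 libraries, exact adjusted p = 0.176), and neither were Etv5 at 17.8 FPKM and Ptpn11 at 17.04 FPKM (5 of 8, exact adjusted p = 0.188). This order rests on the gene lengths behind the deposited FPKM. These lengths were not given and were estimated from the steps of FPKM and the estimated depth. By this estimate they were shorter than the exon unions of GENCODE M21. The values were 4429 against 10328 bases for Fgfr2, 5041 against 9875 for Fgfr1 and 2773 against 2906 for Spry1. Rescaled to exon unions, Fgfr2 at 18.3 was below Spry1 at 22.3 in 8 of 8 libraries, Fgfr1 at 10.4 was below Spry2 at 19.5 in 8 of 8 libraries, and Frs2 at 2.29 and Spred1 at 2.54 were not separated (exact adjusted p = 0.114). On either scale Fgfr3 was highest, and Frs2, Spred1 and Dusp6 were below 4 FPKM.

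The levels of Fgfr3 and Dusp6 went up and down together over the 8 libraries. Pearson's r of their log2 values was 0.95 (exact permutation p = 7.44e-05, adjusted over all 45 pairs of the 10 genes 0.0033) and Spearman's rho was 0.98 (exact permutation p = 0.00040, adjusted 0.018). It was the only pair of the 45 to pass the adjustment, and the pairs were examined after the levels had been seen. The relation was as close after the group means were subtracted (r = 0.95), with the 2 most extreme libraries for Fgfr3 left out (r = 0.93), and in the 6 libraries left without replicate 3 of both groups (r = 0.95, rho = 0.94, exact permutation p = 0.0042). In these 6 libraries Dusp6 ran only from 0.627 to 0.953 FPKM, on 36 to 53 reads. Their exact Poisson intervals all overlapped, with the highest lower end at 0.714 FPKM and the lowest upper end at 0.864 FPKM. The r and rho of these 6 libraries thus rest on Dusp6 values that were not separated beyond counting error. Over all 8 libraries the span differed greatly, since Fgfr3 ran from 75.9 to 84.4 FPKM while Dusp6 ran from 0.627 to 1.52 FPKM. Of all tested genes, 4 of 9793 (0.0408%) had as high an r with Fgfr3, and 7 of 9794 (0.0715%), Fgfr3 included, with Dusp6. Fgfr1 with Spry2 (r = 0.80, exact permutation p = 0.022) and Spry2 with Etv5 (r = 0.78, exact permutation p = 0.016) had an adjusted p of 0.336 each.

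Since the FC had been peeled from the epithelium, each gene was also set against a lens epithelium score, the mean log2(FPKM + 0.1) of the 9 epithelium markers, in 10 relations. The score was highest in replicate 3 of both groups, at 2.49 in untreated Ct and 2.03 in CS-exposed mice, and ranged from 1.18 to 1.93 in the others. Dusp6 had r = 0.75 and rho = 0.69 with it (exact permutation p = 0.027 for r, adjusted 0.271), and r = 0.71 once the 2 libraries with the most extreme scores were left out. Fgfr3 had r = 0.67 and rho = 0.74 (exact permutation p = 0.066 for r, adjusted 0.329), and r = 0.75 without these 2 libraries. Over the same 6 libraries Fgfr1 had r = 0.93 and rho = 1 (exact permutation p = 0.0028 for r, adjusted 0.028), where it had r = -0.19 and rho = -0.02 over all 8, so its relation rests on which libraries are included. The score did not differ between the groups beyond its spread (difference -0.26, exact permutation p = 0.4). Replicate 3 of each group also had the highest summed rod markers of its group (24.8 FPKM in untreated Ct and 92.2 FPKM in CS-exposed mice), pigment epithelium markers (2.44 and 27.0 FPKM) and markers of Mueller glia and inner retina (8.56 and 9.79 FPKM). The part of these cell types in the Dusp6 and Fgfr3 levels was not tested.

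**Figure D4:**
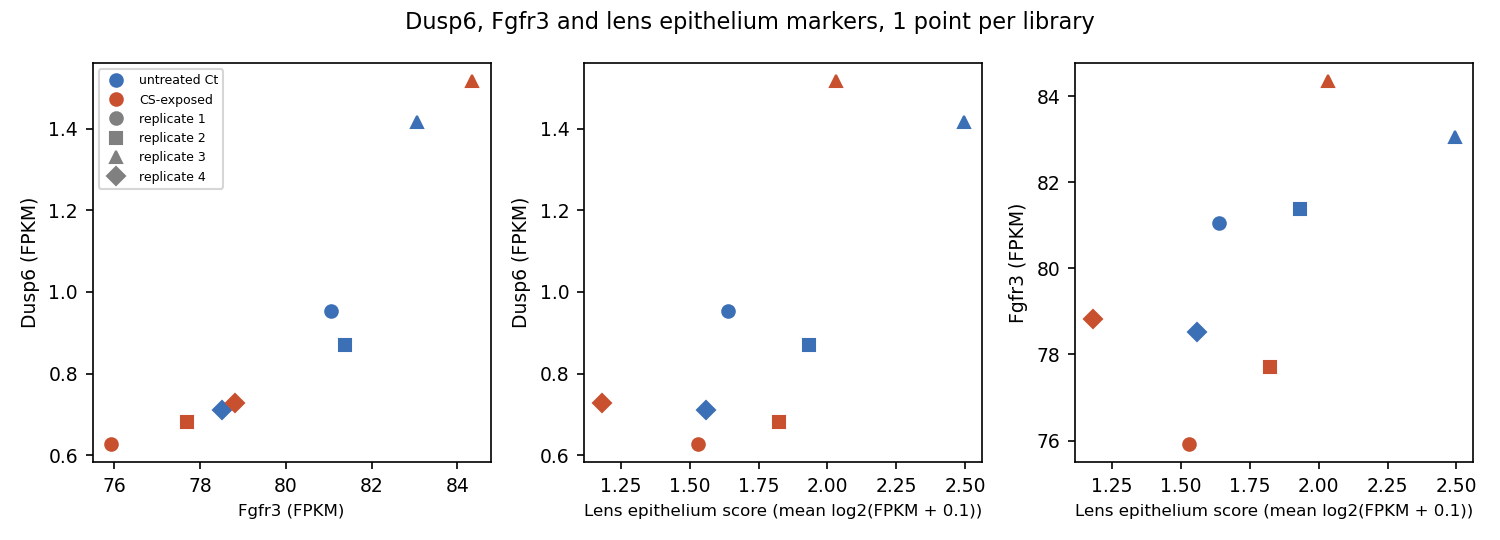
Dusp6 against Fgfr3 (left), and each of them against the lens epithelium score (middle and right), in FPKM on linear axes that do not start at 0, with a point per library. The Dusp6 and Fgfr3 values lie close to a line (r = 0.95), with replicate 3 of both groups at the top, and scatter more about the epithelium score (r = 0.75 and 0.67).

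The genomic sequence just before the start sites of Dusp6, Fgfr3 and Etv5 is shown because the first pair moved together and the third was the gene whose groups did not overlap. Each line holds the 250 bases before a start site of the RefSeq annotation of GRCm38.p6, read 5′ to 3′ on the strand of the gene. Dusp6 lies at chr10:99262981-99263230 (plus strand), Fgfr3 start sites 1 and 2 at chr5:33721474-33721723 and chr5:33722056-33722305 (plus strand), and Etv5 start sites 1 and 2 at chr16:22439571-22439820 and chr16:22438369-22438618 (minus strand). Capitals mark GGAA, the core letters bound by ETS factors such as the Etv5 product, or TTCC where the core is on the other strand.
Dusp6: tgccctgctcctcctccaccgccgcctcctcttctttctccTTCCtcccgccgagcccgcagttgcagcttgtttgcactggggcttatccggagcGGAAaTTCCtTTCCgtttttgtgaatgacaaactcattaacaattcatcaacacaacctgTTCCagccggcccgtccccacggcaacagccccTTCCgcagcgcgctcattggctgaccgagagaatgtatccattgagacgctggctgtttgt
Fgfr3 start site 1: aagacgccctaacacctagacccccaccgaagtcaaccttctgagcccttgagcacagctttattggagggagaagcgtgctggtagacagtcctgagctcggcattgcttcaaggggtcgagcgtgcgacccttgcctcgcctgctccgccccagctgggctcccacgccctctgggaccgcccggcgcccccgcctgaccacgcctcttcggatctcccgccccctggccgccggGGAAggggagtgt
Fgfr3 start site 2: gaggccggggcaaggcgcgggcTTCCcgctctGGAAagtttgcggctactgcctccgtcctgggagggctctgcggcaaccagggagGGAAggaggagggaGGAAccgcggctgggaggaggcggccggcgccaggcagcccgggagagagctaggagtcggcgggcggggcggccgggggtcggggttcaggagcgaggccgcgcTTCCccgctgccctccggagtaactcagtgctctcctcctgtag
Etv5 start site 1: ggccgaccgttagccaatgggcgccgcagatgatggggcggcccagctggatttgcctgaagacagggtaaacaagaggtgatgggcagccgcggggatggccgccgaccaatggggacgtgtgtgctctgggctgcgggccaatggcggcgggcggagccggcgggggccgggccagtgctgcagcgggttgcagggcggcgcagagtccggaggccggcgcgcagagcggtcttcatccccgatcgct
Etv5 start site 2: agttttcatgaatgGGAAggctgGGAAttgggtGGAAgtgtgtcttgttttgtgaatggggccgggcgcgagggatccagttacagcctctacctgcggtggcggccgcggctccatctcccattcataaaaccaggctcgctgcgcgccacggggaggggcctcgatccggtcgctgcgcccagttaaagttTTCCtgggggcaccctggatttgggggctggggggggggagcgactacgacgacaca

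The core occurred 6 times before Dusp6, 1 and 5 times before the Fgfr3 start sites, and 0 and 4 times before those of Etv5. Of 32851 promoter windows of this length, 93.4% held it, with a median of 3 matches, a lower quartile of 2 and an upper quartile of 4. Of the 5 counts here 1 lay within the quartiles, 2 above and 2 below. The longer form CCGGAA, found in 12.0% of all windows and containing GGAA, was in none of these 5. Windows were at hand for 9 of the 10 genes, 11 in all. A match is a run of letters and does not show that a factor binds there.

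The genes whose levels over the 8 libraries were most like those of a receptor were found by Pearson's r of log2 values among 9793 tested genes, as a description. Fgfr3 was closest to Nisch (r = 0.97), Mia3 (0.97) and Arhgef37 (0.96), Fgfr2 to 5031434O11Rik (0.949), Gm15501 (0.947) and Vezt (0.945), and Fgfr1 to Acvr2a (0.97), Cyp20a1 (0.97) and Dennd6a (0.94). None of these is a member of the pathway lists below. All values of a library share its depth and scaling, and these genes are the top of a ranking of all tested genes.

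The rest of the pathway was read from 7 lists of 115 genes, the 10 genes included, of which 114 were in the table and 66 reached 1.0 FPKM. On these 66, 30 were higher and 36 lower in CS-exposed mice, none passed the adjusted threshold (lowest adjusted p = 0.956), and 2 passed an unadjusted p of 0.05, 1 in each direction. That is 3.03% of the list against 4.83% of all tested genes, of which 2.75% were higher and 2.08% lower. Groups did not overlap for 4 of the 66 (6.06%, against 3.08% of all tested genes), with Etv5 and Shc1 higher and Dusp7 and Elk4 lower in CS-exposed mice. Elk4 was among the 66 only through its mean in untreated Ct mice, the group where it was higher, so its place in this count depends on the minimum.

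Of 22 FGF ligand genes, only Fgf12 and Fgf1 reached the minimum. Fgf12, one of the intracellular FGF, measured 8.79 ± 0.674 and 9.27 ± 0.260 FPKM in untreated Ct and CS-exposed mice. Fgf1, a secreted ligand of all receptors, measured 1.64, 1.87, 2.18 and 1.35 FPKM in untreated Ct mice and 1.57, 2.02, 1.75 and 1.73 FPKM in CS-exposed mice, with the groups overlapping. Fgf11 followed at 0.456 and 0.542 FPKM, and 7 ligand genes, among them Fgf2, were listed at 0 in all libraries. Fgfrl1, a receptor without a kinase domain, measured 23.9 ± 1.34 and 22.1 ± 1.77 FPKM (log2 difference -0.12, limma unadjusted p = 0.136).

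Among 17 adaptors and proximal effectors, 15 were tested, 8 of them higher and 7 lower. Shc1, an adaptor that links receptor tyrosine kinases to GRB2, was the 1 gene with an unadjusted p under 0.05. It measured 40.1, 38.02, 36.4 and 38.6 FPKM in untreated Ct mice and 42.0, 43.2, 43.2 and 41.7 FPKM in CS-exposed mice. All 4 CS-exposed values lay above all untreated Ct values, with a log2 difference of 0.15 (SE 0.050, limma unadjusted p = 0.011, adjusted p at or above 0.956). The kinase gene Akt1 (34.0 and 35.5 FPKM) and the adaptor gene Grb2 (29.6 and 30.5 FPKM) were the next highest.

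The RAS-ERK cascade had 14 of 16 genes tested, with 8 higher, 6 lower and a median log2 difference of 0.03. The kinase genes Map2k2 (65.5 and 67.8 FPKM in untreated Ct and CS-exposed mice) and Mapk3 (59.5 and 57.7 FPKM) and the GTPase gene Hras (27.2 and 28.1 FPKM) were highest, and none of the 14 had an unadjusted p under 0.05.

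Of the 14 feedback inhibitors listed, 7 were tested, Spry1, Spry2 and Spred1 among them. Dusp7, like Dusp6 a phosphatase of ERK, was the only 1 with an unadjusted p under 0.05. It measured 3.21, 3.17, 2.99 and 3.70 FPKM in untreated Ct mice and 2.14, 2.91, 2.65 and 2.30 FPKM in CS-exposed mice. All CS-exposed values lay below all untreated Ct values, with a log2 difference of -0.38 (SE 0.129, limma unadjusted p = 0.013, adjusted p at or above 0.956). Errfi1, an inhibitor of EGF receptors, measured 4.65 ± 0.724 and 5.53 ± 0.498 FPKM (log2 difference 0.25, limma unadjusted p = 0.057).

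Of 17 ERK-responsive factors and targets, 6 were tested, 2 of them higher and 4 lower. The ETS factor gene Elk4 measured 1.37, 1.26, 1.52 and 1.27 FPKM in untreated Ct mice and 1.13, 1.19, 0.956 and 0.709 FPKM in CS-exposed mice. The groups did not overlap, with a log2 difference of -0.43 and a limma unadjusted p of 0.064. Elk4 reached the minimum of 1.0 FPKM only in untreated Ct mice, at a mean of 1.36 against 0.998 FPKM in CS-exposed mice. It was thus tested only through the group where it was higher. Etv1 and Etv4, the relatives of Etv5, were below the minimum, at 0.621 and 0.556 FPKM and at 0.240 and 0.111 FPKM in untreated Ct and CS-exposed mice. After Etv5 the highest levels were those of the cyclin genes Ccnd1 (14.2 and 14.8 FPKM) and Ccnd2 (4.34 and 3.61 FPKM).

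Among the 22 genes that make or carry heparan sulfate, the co-factor of FGF binding, 18 were tested. Of these 5 were higher and 13 lower in CS-exposed mice, with a median log2 difference of -0.07 and none with an unadjusted p under 0.05. The core protein genes Hspg2 (29.9 and 27.5 FPKM), Sdc2 (25.9 and 25.6 FPKM) and Sdc1 (23.8 and 24.6 FPKM) had the highest levels.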

How the data were processed

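Reads, paired and 150 bases long, were mapped by the authors to GRCm38. Their notes name STAR 2.5 as aligner and HTSeq 0.6.1 as counter. The deposited values are FPKM of each library, not on a log scale. The deposited table also holds group means and the authors' own log2 fold changes and p-values, none of which was used. All per-library columns could be tied to a sample. The annotation release is not given in the sources used here.

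Genes that averaged 1.0 FPKM or more in one group at least entered the comparison. The scale was log2(FPKM + 0.1), where changes of low genes are understated, and the fit was made with limma 3.58.1 in R 4.3.3 (lmFit, eBayes with trend, two-sided, Benjamini-Hochberg over 9794 genes, called at an adjusted p under 0.05). Single values were tested by exact permutation of libraries with scipy 1.17.1. Coordinates and promoter windows come from RefSeq tables of GRCm38.p6. The fit was tested on simulated data.

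Depth was found from the steps of FPKM, which gave whole reads (within 0.02 reads) for 9781 of the 9794 tested genes (99.9%). Fragment totals rest on annotated gene lengths, of which 819 of 9293 matched those implied.

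Groups and replicate numbers came from the sample titles. Named were the 10 genes, the 3 highest genes of each pathway list, those with an unadjusted p under 0.05 and the 3 most correlated with each receptor. Elk4, Etv1, Etv4, Fgf2, Fgfr4 and the marker Best1 were added after their values were seen. Genes and lists were chosen with earlier results of these data known. Alternatives were other pseudocounts (0.01 and 1), other filters, centring, quantile normalization, eBayes without trend or robust, limma-voom on recovered reads, a replicate block and leaving out libraries. Leaving out replicate 3 of both groups and rescaling to exon-union lengths (GENCODE M21) were chosen after seeing the data.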

Additional observations from a re-analysis of the deposited data

Results flagged for a closer look

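Within each group of 4 libraries, the highest and lowest values of the 10 genes, of the receptor shares and of the epithelium score were compared with the other 3. Of 30 groups examined 2 had a library set apart by more than the 95% critical value of Dixon's test, and chance alone gives about 1.5. Dusp6 stood at 1.52 FPKM in CS-exposed replicate 3, where the other 3 CS-exposed libraries held 0.627 to 0.727 FPKM. Spry1 stood at 22.3 FPKM in untreated Ct replicate 2, where the other 3 untreated Ct libraries lay close together at 23.5 to 23.6 FPKM.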

How the results depend on the processing

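Of 191 values of the 10 genes under 20 alternative settings, 174 kept their direction. The lowest adjusted p was 0.906, and the lowest unadjusted p, 0.0478, was that of Spry2 (log2 difference 0.19) without CS-exposed replicate 1. Quantile normalization turned Spry1 to -0.0013. It moved Fgfr1 to 0.036, Fgfr2 to 0.0027, Fgfr3 to -0.048 and Ptpn11 from -0.0069 to -0.030. Without replicate 3 of both groups, Fgfr1 turned to -0.0095, Ptpn11 to 0.035, and Frs2 moved to -0.0970, the Fgfr1 share to 0.0984 percentage points, the Fgfr2 share to 1.15 and the Fgfr4 share to 0.0045 percentage points. The cause was not tested. With exon-union gene lengths, which by construction rescale each gene, the log2 difference in level turned to -0.29 for Fgfr2 over Spry1, -0.90 for Fgfr1 over Spry2 and -0.14 for Frs2 over Spred1. Leaving out 1 library at a time gave log2 differences of 0.024 to 0.10 for Fgfr1, -0.0086 to 0.046 for Fgfr2, -0.064 to -0.013 for Fgfr3, -0.062 to 0.010 for Frs2, -0.00045 to 0.043 for Spry1, 0.050 to 0.19 for Spry2, -0.068 to 0.077 for Spred1, 0.086 to 0.15 for Etv5, -0.445 to -0.0088 for Dusp6 and -0.038 to 0.020 for Ptpn11. Receptor share differences then ran from 0.239 to 0.873 points for Fgfr1, -0.00055 to 1.09 for Fgfr2, -1.62 to -0.614 for Fgfr3 and -0.020 to 0.0033 for Fgfr4. The count of the 10 genes with an unadjusted p under 0.05 was 0 to 1, that of the pathway lists 2 to 5, and over all genes 0 to 1 passed the adjusted and 418 to 525 the unadjusted threshold. Without CS-exposed replicate 1 the pathway count was 5, and without untreated Ct replicate 4 no gene passed the adjusted threshold.

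The pathway count of 2 became 1 with a filter of 5 FPKM, 4 without a filter and 4 with limma-voom. Among all genes the unadjusted count of 473 became 226 with the filter of 5 FPKM and 862 without a filter, and the adjusted count of 1 became 0 without a filter, 0 without the trend, 2 with limma-voom and 5 with the replicate block. Under the replicate block 522 genes passed the unadjusted threshold, and no call of the 9 tested genes changed. The main fit did not pair libraries by replicate number. Same-numbered libraries correlated at a mean of 0.0904, with 2 of 4 over 0.1, and other pairs at a mean of -0.0301. Of 8 libraries, 6 correlated best with their own number. Whether same-numbered libraries share sex or handling is not given in the sources used here and was not tested.

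Correlations with the epithelium score turned from negative to positive, or back, without untreated Ct replicate 3 and CS-exposed replicate 4, the libraries farthest from its median, at r = 0.925 for Fgfr1, -0.234 for Fgfr2, 0.480 for Frs2, 0.745 for Spry2 and 0.490 for Etv5, and that of Spry2 at 0.0721 with group means subtracted. Counting error limits the precision of the Dusp6 values, which rested on 36 to 92 reads per library.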
